A study of Mus musculus with 12 samples.

Results

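The genes described here are the members of the 4 mouse Hox clusters, the homeobox genes Hoxa, Hoxb, Hoxc and Hoxd. They were chosen by symbol: every gene of the count table named Hoxa, Hoxb, Hoxc or Hoxd with a paralog number, which gave 39 of 24495 genes. Cluster a held 11 members, cluster b 10, cluster c 9 and cluster d 9. All 39 were read in 2 lines of mouse embryonic stem cells (CCE-Nanog-GFP), 1 with a scramble shRNA (shSC) and 1 with an shRNA against cathepsin L (shCTSL), each lentiviral and puromycin-selected, with GFP-positive cells sorted by flow cytometry. The control libraries, given as wild type in 1 label and as scramble in their titles, were taken as shSC. Cells were differentiated as embryoid bodies under constant rotation, without LIF and with 10 µM all-trans retinoic acid, with media changed every other day. RNA was sequenced at Day 0, Day 2 and Day 4, with 2 libraries per group and 12 in all.

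Hox proteins are homeodomain transcription factors that give cells their position along the head to tail axis of the embryo. Within a cluster the genes lie in the order of their paralog numbers, and in the embryo the low-numbered end is in general switched on first and furthest forward. Many low-numbered members respond to retinoic acid, some of them directly through its nuclear receptors.

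Ctsl, the gene targeted by the shRNA, encodes the lysosomal protease cathepsin L. It held 137 and 147 CPM at Day 0, 369 and 391 at Day 2 and 483 and 423 at Day 4 in shSC, against 39.2 and 37.5 CPM at Day 0, 210.5 and 155 at Day 2 and 257 and 253 at Day 4 in shCTSL. Each shCTSL library lay below both shSC libraries of its day. CPM here and below are scaled with TMM factors. The log2 fold change of shCTSL against shSC was -1.89 at Day 0 (adjusted p 0.00246, called), -1.06 at Day 2 (adjusted p 0.0342, called) and -0.83 at Day 4 (adjusted p 0.0896, not called). Averaged over the days the change was -1.26 (adjusted p 0.000198). Leaving out shCTSL Day 0 replicate 1 or 2 removed the Day 0 call, at an adjusted p of 0.117 and 0.129. The Day 2 call went away when any 1 of the 10 libraries outside shCTSL Day 2 was left out, with adjusted p from 0.0847 to 0.474. That call was also lost with replicate number as a block. At Day 4 a call appeared when shCTSL Day 2 replicate 1, replicate 2 or both were left out, at adjusted p of 1.33e-05, 1.73e-05 and 1.88e-05.

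Library totals ran from 11171111 to 27155553 counts. Hox genes took 186 to 230 counts per library at Day 0, and 23247 to 52242 at Day 2 and Day 4. At Day 0, 5 members per library reached 10 counts, against 32 to 35 of the 39 in each later library. The 2 shCTSL Day 2 libraries stood apart from each other. The SD over genes of the log2 ratio between replicates was 0.604 there and 0.178 to 0.269 in the other 5 groups. In shCTSL Day 2 that ratio followed exonic length over all genes tested (Spearman -0.587). In shCTSL Day 2 replicate 1, Rn45s, the ribosomal RNA precursor, took 3.43 percent of the counts (95% Wilson interval 3.42 to 3.44), against 0.553 percent (0.550 to 0.556) in replicate 2. The shSC Day 2 pair also differed, at 0.17 percent (0.168 to 0.171) and 0.726 percent (0.722 to 0.729). At Day 4 the share of Rn45s was 1.43 percent (1.43 to 1.44) and 1.06 percent (1.05 to 1.06) in shSC against 0.376 percent (0.373 to 0.379) and 0.228 percent (0.226 to 0.230) in shCTSL. The Wilson intervals of Rn45s cover counting error only, not the spread between libraries. The correlation of the replicate ratio with length was -0.290 in shCTSL Day 0 and 0.378 in shCTSL Day 4, against 0.037 to 0.156 in the shSC groups. The part of RNA quality in the results below was not tested. Calls between the lines at Day 0 and Day 4, for Hox genes and the gene lists, are therefore given with and without the 2 shCTSL Day 2 libraries. The authors describe the pairs as biological replicates, but whether they came from separate cultures is not stated, so p-values measure the spread between these samples.

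In the mm9 build, by GENCODE gene models, cluster a spanned chr6:52105366-52210874 on the minus strand. Clusters b (chr11:96055630-96229570), c (chr15:102751534-102867274) and d (chr2:74506367-74603200) lay on the plus strand, with the highest paralog number at the lowest coordinate. Exons of neighbouring genes overlapped on the same strand by 267 bases for Hoxa2 and Hoxa3, 1069 for Hoxb7 and Hoxb8, and 1725 for Hoxd3 and Hoxd4. Overlaps with microRNA genes came to 85 bases for Hoxa9 with Mir196b and 110 for Hoxb4 with Mir10a. Whether the authors counted reads by strand or dropped reads in shared exons is not stated, so the levels of these genes may hold or lack reads of a neighbour.

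At Day 0 most members sat near the floor. Over the 2 shSC libraries, 4 members held 0 counts (Hoxa6, Hoxa13, Hoxb3, Hoxc11), 12 held 1 to 3, 13 held 4 to 9 and 10 held 10 or more. In shCTSL, 3 members held 0 counts (Hoxa13, Hoxb6, Hoxc5), 12 held 1 to 3, 14 held 4 to 9 and 10 held 10 or more. Per kilobase of exon, the leading member at Day 0 in both lines was Hoxb9 in cluster b, Hoxc13 in cluster c and Hoxd13 in cluster d. The 39 members together held 14.2 and 14.2 CPM in shSC, and 15.9 and 19.8 CPM in shCTSL.

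The sum over the 39 members rose to 1733 and 1780.2 CPM in shSC and to 2273 and 1929 CPM in shCTSL at Day 2. At Day 4 it was 1501 and 1611 CPM in shSC and 1569.7 and 1678 CPM in shCTSL. Every Day 2 and Day 4 library thus lay far above all 4 Day 0 libraries. Of the 39, 35 were tested, and most of these passed the count filter through their Day 2 and Day 4 libraries alone. Hoxa11, Hoxc11, Hoxc12 and Hoxd12 were not tested, with 58, 21, 10 and 18 counts over all 12 libraries.

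From Day 0 to Day 2 in shSC, 31 of 35 members were called higher by the edgeR quasi-likelihood test, against 29.3 percent of all 15532 genes tested. None, 0 of 35, was called lower (25.3 percent of all genes). Members near 0 counts at Day 0 could not be called lower, and they passed the filter only if they rose, so the shares of all genes given here are no contrast for them. From Day 0 to Day 4 in shSC, 33 were called higher (32.1 percent of all genes) and 0 lower (28.7 percent). In shCTSL, 31 were called higher at Day 2 (30.9 percent) and 0 lower (24.6 percent). At Day 4 in shCTSL, 34 were called higher (32.3 percent) and 0 lower (27.6 percent). With 1 library left out at a time, the number called went from 31 to 32 and from 32 to 33 in shSC, and from 30 to 31 and from 32 to 35 in shCTSL, for Day 2 and Day 4. Scaled by library totals alone, a choice made after the data were seen, the median of all genes moved up by 0.395 and 0.325 in shSC and by 0.339 and 0.373 in shCTSL. In bulk samples, fewer cells with a transcript and less of it per cell cannot be told apart.

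The median log2 fold change over the 35 members, with those at 0 counts on Day 0 set to their lower bound, was 6.82 at Day 2 and 7.15 at Day 4 in shSC. In shCTSL it was 6.61 and 6.49. As fitted, the medians were 7.03 and 7.31 in shSC and 6.61 and 6.75 in shCTSL, but such fitted values depend on the prior count and are no bound. Over all genes tested the medians were 0.02 and 0.03 in shSC and 0.08 and 0.06 in shCTSL. By paralog number, all 12 tested members of groups 1 to 4 and all 11 of groups 5 to 8 were called higher in each of these 4 comparisons. Groups 9 to 13 have 16 members, 12 of them tested. Of these, 8 were called higher at Day 2 and 10 at Day 4 in shSC, and 8 and 11 in shCTSL. Those not called at Day 2 in either line were Hoxc13, Hoxd10, Hoxd11 and Hoxd13, and at Day 4 Hoxd11 in both lines and Hoxd10 in shSC alone.

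Summed per kilobase of exon, cluster a held 1.87 and 1.93 CPM at Day 0, 220.2 and 232 at Day 2 and 200.1 and 209 at Day 4 in shSC. In shCTSL, cluster a held 1.88 and 2.29 CPM at Day 0, 340.0 and 251 at Day 2 and 226 and 234 at Day 4. Cluster b, summed in the same way, held 0.883 and 0.932 CPM at Day 0, 353 and 358 at Day 2 and 266 and 295 at Day 4 in shSC. In shCTSL, cluster b held 1.12 and 1.84 CPM at Day 0, 456 and 392 at Day 2 and 284 and 305 at Day 4. It was the highest of the 4 clusters in every Day 2 and Day 4 library on this scale. For cluster c the shSC libraries held 1.47 and 1.25 CPM at Day 0, 75.6 and 82.7 at Day 2 and 89.5 and 90.9 at Day 4. In shCTSL, cluster c held 1.25 and 1.71 CPM at Day 0, 87.4 and 75.4 at Day 2 and 83 and 98 at Day 4. For cluster d they held 1.4 and 1.43 CPM at Day 0, 29.4 and 26.9 at Day 2 and 18.3 and 22.5 at Day 4 in shSC. In shCTSL, cluster d held 1.7 and 1.76 CPM at Day 0, 34.6 and 34.9 at Day 2 and 23.7 and 24.8 at Day 4. Cluster d was the lowest of the 4 at Day 2 and Day 4 in every library.

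**Figure D1:**
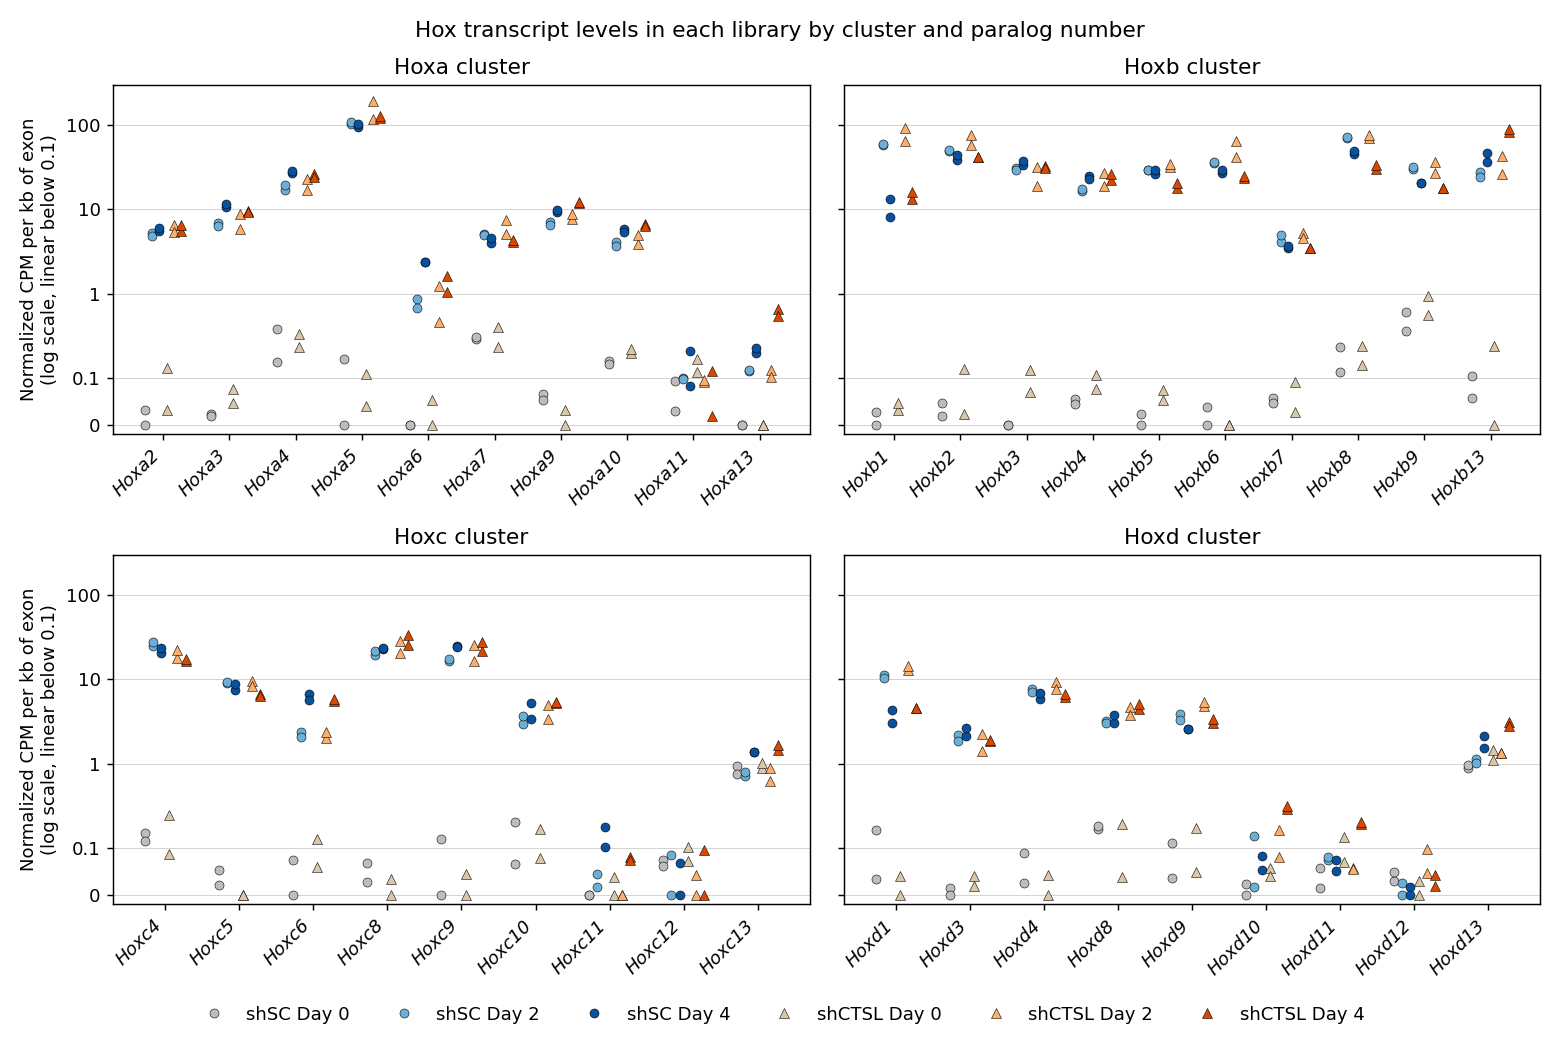
Levels of Hox genes by cluster and paralog number in the 2 lines at Day 0, 2 and 4 (normalized CPM per kilobase of exon, log scale; each point is 1 library). Day 0 values lie near the floor, and at Day 2 and Day 4 levels in clusters a, c and d are lower at the highest paralog numbers than at the lowest, while cluster b keeps a high last member, Hoxb13.

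In cluster a, Hoxa5 and Hoxa4 were among the 3 highest members per kilobase at Day 4. Hoxa4 held 0.61 and 0.248 CPM at Day 0, 26.9 and 31 at Day 2 and 43.5 and 45 at Day 4 in shSC. In shCTSL, Hoxa4 held 0.373 and 0.526 CPM at Day 0, 36.2 and 27.4 at Day 2 and 41.7 and 38.2 at Day 4. Hoxa4, a gene of the cervical region, was lowest in the 4 Day 0 libraries and highest in the 4 Day 4 libraries, where shCTSL lay below shSC. Hoxa4 changed from Day 0 by log2 6.11 ± 0.39 (adjusted p 1.07e-07, 6.83 without shSC Day 0 replicate 1) at Day 2 and 6.72 ± 0.39 (adjusted p 3.21e-08, 7.44 without shSC Day 0 replicate 1) at Day 4 in shSC. For Hoxa4 in shCTSL the log2 changes were 6.16 ± 0.42 (adjusted p 1.28e-07) at Day 2 and 6.49 ± 0.42 (adjusted p 5.49e-08) at Day 4.

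Hoxa5 held 0 and 0.31 CPM at Day 0, 192 and 204 at Day 2 and 177 and 191 at Day 4 in shSC. In shCTSL, Hoxa5 held 0.0746 and 0.211 CPM at Day 0, 365 and 221 at Day 2 and 226 and 243 at Day 4. Hoxa5, which acts in the lung and the axial skeleton, was the highest member of cluster a per kilobase at Day 2 and Day 4 in both lines, and shCTSL lay above shSC without overlap on both days. The 2 shCTSL Day 2 libraries differed from each other more than the shSC pair. The shSC Day 0 libraries held 0 and 5 counts. The log2 changes of Hoxa5 in shSC were 10.13 ± 0.85 (adjusted p 8.82e-08, 9.29 and 14.86 on leaving out shSC Day 0 replicate 1 and 2) at Day 2 and 10.02 ± 0.85 (adjusted p 5.05e-08, 9.18 and 14.73 on leaving out shSC Day 0 replicate 1 and 2) at Day 4. The value without replicate 2 is fitted against 0 counts and is no bound. The ratio to Day 0 in shSC was 1155 (95% exact counting interval 495 to 3557) at Day 2 and 1068 (95% exact counting interval 457 to 3289) at Day 4. For shCTSL, with 3 counts over Day 0, the ratio of Hoxa5 to Day 0 was 2137 (95% exact counting interval 731 to 10362) at Day 2 and 1794 (95% exact counting interval 614 to 8699) at Day 4. Hoxa13 held 0 and 0 CPM at Day 0, 0.299 and 0.306 at Day 2 and 0.486 and 0.555 at Day 4 in shSC. In shCTSL, Hoxa13 held 0 and 0 CPM at Day 0, 0.308 and 0.255 at Day 2 and 1.62 and 1.33 at Day 4. Hoxa13, the last member of the cluster and a gene of the limb bud and the genital tubercle, held 0 counts in all 4 Day 0 libraries and its 2 lines did not overlap at Day 4, with shCTSL higher. In shSC it was at least 2.95-fold higher at Day 2 and at least 5.0-fold higher at Day 4 than the Day 0 floor of 3 counts over the group. In shCTSL the bounds were at least 2.11-fold at Day 2 and at least 11.2-fold at Day 4. Floors and counting intervals here and below cover counting error only.

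Hoxa6 held 0 and 0 CPM at Day 0, 1.73 and 1.36 at Day 2 and 4.77 and 4.71 at Day 4 in shSC. In shCTSL, Hoxa6 held 0 and 0.105 CPM at Day 0, 0.923 and 2.47 at Day 2 and 3.25 and 2.11 at Day 4. Hoxa6, a mid-cluster member expressed in the trunk, lay in shCTSL Day 4 below shSC Day 4 without overlap. Against the Day 0 floor it was at least 15.3-fold higher at Day 2 and at least 46.3-fold higher at Day 4 in shSC. In shCTSL, where Day 0 held 1 count, the ratio was 42.1 (95% exact counting interval 7.32 to 1684) at Day 2 and 60.8 (95% exact counting interval 10.7 to 2424) at Day 4. The other tested members of cluster a (Hoxa2, Hoxa3, Hoxa7, Hoxa9, Hoxa10) were called higher than Day 0 in both lines and on both days. Hoxa11, not tested, held 1 and 4 counts at Day 0, 8 and 6 at Day 2 and 5 and 8 at Day 4 in shSC. In shCTSL, Hoxa11 held 6 and 3, 4 and 6 and 6 and 1 counts. It thus held at most 8 counts in any library.

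In cluster b the 3 highest members per kilobase at Day 4 were Hoxb13, Hoxb2 and Hoxb8. Hoxb2 held 0.152 and 0.0619 CPM at Day 0, 163 and 168 at Day 2 and 128 and 147 at Day 4 in shSC. In shCTSL, Hoxb2 held 0.0746 and 0.421 CPM at Day 0, 249 and 191 at Day 2 and 137 and 139.7 at Day 4. Hoxb2, a gene of the hindbrain and its facial motor neurons, was lowest in the 4 Day 0 libraries, and in shCTSL the Day 2 libraries lay above those of Day 4. With 3 counts over shSC Day 0, Hoxb2 reached a ratio of 1607 (95% exact counting interval 549.8 to 7796) at Day 2. At Day 4 its ratio in shSC was 1318 (95% exact counting interval 451 to 6392). The fitted log2 changes of Hoxb2 in shCTSL were 9.93 ± 0.60 (adjusted p 1.59e-08, 9.01 and 11.41 on leaving out shCTSL Day 0 replicate 1 and 2) at Day 2 and 9.26 ± 0.60 (adjusted p 1.34e-08, 8.34 and 10.73 on leaving out shCTSL Day 0 replicate 1 and 2) at Day 4. Hoxb8 held 0.61 and 0.31 CPM at Day 0, 187 and 194 at Day 2 and 121 and 129 at Day 4 in shSC. In shCTSL, Hoxb8 held 0.373 and 0.632 CPM at Day 0, 186 and 201 at Day 2 and 79.4 and 89.1 at Day 4. Hoxb8, a gene of the spinal cord and of blood progenitors, was lower at Day 4 than at Day 2 in all libraries of both lines. Hoxb8 changed from Day 0 by log2 8.72 ± 0.30 (adjusted p 4.27e-09) at Day 2 and 8.11 ± 0.30 (adjusted p 3.22e-09) at Day 4 in shSC. For Hoxb8 in shCTSL the log2 changes were 8.63 ± 0.32 (adjusted p 5.16e-09) at Day 2 and 7.43 ± 0.32 (adjusted p 6.77e-09) at Day 4.

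Hoxb1 held 0 and 0.0619 CPM at Day 0, 136 and 139 at Day 2 and 18.6 and 31.1 at Day 4 in shSC. In shCTSL, Hoxb1 held 0.0746 and 0.105 CPM at Day 0, 215 and 149 at Day 2 and 30.5 and 37.2 at Day 4. Hoxb1, which gives a hindbrain segment its identity, was highest at Day 2, when shCTSL lay above shSC without overlap, and fell in both lines by Day 4. With 1 to 3 counts over Day 0, its ratio to Day 0 in shSC was 4018 (95% exact counting interval 721 to 158722) at Day 2 and 687 (95% exact counting interval 123 to 27166) at Day 4. For shCTSL the ratio of Hoxb1 was 2016 (95% exact counting interval 558 to 16650.3) at Day 2 and 389 (95% exact counting interval 108 to 3219) at Day 4. Hoxb3 held 0 and 0 CPM at Day 0, 92.4 and 88.6 at Day 2 and 102 and 112 at Day 4 in shSC. In shCTSL, Hoxb3 held 0.373 and 0.211 CPM at Day 0, 57.4 and 95.5 at Day 2 and 97 and 91.8 at Day 4. Hoxb3, another hindbrain gene, held 0 counts in both shSC Day 0 libraries against 5 and 2 counts in the shCTSL Day 0 libraries. It was at least 886-fold higher at Day 2 and at least 1032-fold higher at Day 4 than the Day 0 floor in shSC. For shCTSL the fitted log2 changes of Hoxb3 were 7.94 ± 0.60 (adjusted p 2.46e-07) at Day 2 and 8.24 ± 0.60 (adjusted p 1.21e-07) at Day 4.

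Hoxb13 held 0.229 and 0.124 CPM at Day 0, 61.7 and 53.3 at Day 2 and 79.9 and 102 at Day 4 in shSC. In shCTSL, Hoxb13 held 0 and 0.526 CPM at Day 0, 95.6 and 57.2 at Day 2 and 181 and 197 at Day 4. Hoxb13, the last member of the cluster and a gene of the tail bud and the prostate, was higher at Day 4 than at Day 2 in every library of each line, with the change in shSC not called, and at Day 4 both shCTSL libraries lay above both shSC libraries. Hoxb13 changed from Day 0 by log2 8.34 ± 0.96 (adjusted p 6.52e-07) at Day 2 and 8.99 ± 0.96 (adjusted p 2.23e-07) at Day 4 in shSC. For Hoxb13 in shCTSL the log2 changes were 8.39 ± 0.95 (adjusted p 6.37e-07, 7.16 and 13.52 on leaving out shCTSL Day 0 replicate 1 and 2) at Day 2 and 9.7 ± 0.95 (adjusted p 1.47e-07, 8.47 and 14.82 on leaving out shCTSL Day 0 replicate 1 and 2) at Day 4. The shCTSL Day 0 libraries held 0 and 5 counts, so the fit without replicate 2 sets both later days against 0 counts and gives no bound. The ratio of Hoxb13 to Day 0 in shCTSL was 334 (95% exact counting interval 143 to 1029.6) at Day 2 and 868 (95% exact counting interval 372 to 2674) at Day 4. Hoxb6 held 0 counts at Day 0 in shCTSL and was at least 815-fold higher at Day 2 and at least 383-fold higher at Day 4. The remaining tested members of cluster b (Hoxb4, Hoxb5, Hoxb7, Hoxb9), and Hoxb6 in shSC, were called higher than Day 0 on both days in each line.

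In cluster c the 3 highest members per kilobase at Day 4 were Hoxc8, Hoxc9 and Hoxc4. Hoxc4 held 0.381 and 0.31 CPM at Day 0, 63.5 and 70.3 at Day 2 and 52.3 and 59.5 at Day 4 in shSC. In shCTSL, Hoxc4 held 0.224 and 0.632 CPM at Day 0, 45.3 and 56.3 at Day 2 and 42 and 44.5 at Day 4. Hoxc4, a gene of the cervical region, was lowest in the 4 Day 0 libraries, and shCTSL lay below shSC at Day 2 and Day 4 without overlap. Hoxc4 changed from Day 0 by log2 7.58 ± 0.40 (adjusted p 2.09e-08) at Day 2 and 7.32 ± 0.40 (adjusted p 1.45e-08) at Day 4 in shSC. For Hoxc4 in shCTSL the log2 changes were 6.98 ± 0.41 (adjusted p 4.29e-08, 6.32 and 7.79 on leaving out shCTSL Day 0 replicate 1 and 2) at Day 2 and 6.75 ± 0.41 (adjusted p 3.07e-08, 6.08 and 7.55 on leaving out shCTSL Day 0 replicate 1 and 2) at Day 4. Hoxc8 held 0.152 and 0.0619 CPM at Day 0, 44.3 and 49.8 at Day 2 and 53.3 and 54.2 at Day 4 in shSC. In shCTSL, Hoxc8 held 0.0746 and 0 CPM at Day 0, 65.3 and 46.8 at Day 2 and 59 and 76.9 at Day 4. Hoxc8, a gene of the thoracic region and of motor neurons to the forelimb, was lowest in the 4 Day 0 libraries, and at Day 4 shCTSL lay above shSC. With 1 to 3 counts over Day 0, the ratio of Hoxc8 to Day 0 in shSC was 455 (95% exact counting interval 156 to 2210.1) at Day 2 and 524 (95% exact counting interval 179 to 2541) at Day 4. For shCTSL it was 1246 (95% exact counting interval 223 to 49225) at Day 2 and 1566 (95% exact counting interval 281 to 61862) at Day 4.

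Hoxc9 held 0 and 0.31 CPM at Day 0, 40.2 and 42.6 at Day 2 and 61.1 and 59.5 at Day 4 in shSC. In shCTSL, Hoxc9 held 0 and 0.105 CPM at Day 0, 62.7 and 39.7 at Day 2 and 53.2 and 67.6 at Day 4. Hoxc9, a gene of thoracic motor neurons, was lowest in the 4 Day 0 libraries, and the lines overlapped at Day 2 and Day 4. The shSC Day 0 libraries held 0 and 5 counts. For Hoxc9 in shSC the fit gave 7.87 ± 0.87 (adjusted p 5.65e-07, 7.03 and 12.6 on leaving out shSC Day 0 replicate 1 and 2) at Day 2 and 8.41 ± 0.87 (adjusted p 2e-07, 7.57 and 13.13 on leaving out shSC Day 0 replicate 1 and 2) at Day 4, where the values without replicate 2 are fitted against 0 counts. Its ratio to Day 0 in shSC was 241 (95% exact counting interval 103 to 744) at Day 2 and 354 (95% exact counting interval 151 to 1091) at Day 4. For shCTSL, with 1 count over Day 0, its ratio was 1126 (95% exact counting interval 202 to 44491) at Day 2 and 1392 (95% exact counting interval 249.5 to 54986) at Day 4. Hoxc13 held 2.29 and 1.86 CPM at Day 0, 1.76 and 1.97 at Day 2 and 3.36 and 3.4 at Day 4 in shSC. In shCTSL, Hoxc13 held 2.16 and 2.53 CPM at Day 0, 1.54 and 2.17 at Day 2 and 3.52 and 4.03 at Day 4. Hoxc13, the last member of the cluster and a gene of hair and nails, differed from the named members of low number: its Day 2 libraries did not rise above Day 0, and its Day 4 libraries lay above both. The Day 4 change against Day 0 was 0.71 ± 0.23 (adjusted p 0.0182) in shSC and 0.70 ± 0.23 (adjusted p 0.0207) in shCTSL. At Day 2 the change against Day 0 was -0.15 ± 0.23 (adjusted p 0.598) in shSC and -0.30 ± 0.25 (adjusted p 0.349) in shCTSL. With library totals alone these values read 0.24 and 0.040, while the median of all genes moved by 0.395 and 0.339, so the flip in direction follows the scaling of all genes. Leaving out shSC Day 0 replicate 2, shSC Day 4 replicate 1 or shSC Day 4 replicate 2 removed the shSC call at Day 4, at adjusted p of 0.126, 0.0616 and 0.0539. Leaving out shCTSL Day 0 replicate 1 or shCTSL Day 4 replicate 2 removed that of shCTSL, at 0.138 and 0.104. Hoxc5 held 0 counts at Day 0 in shCTSL and was at least 197-fold higher at Day 2 and at least 145-fold higher at Day 4. The remaining tested members of cluster c (Hoxc6, Hoxc10), and Hoxc5 in shSC, were called higher than Day 0 on both days in each line.

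In cluster d the 3 highest members per kilobase at Day 4 were Hoxd4, Hoxd1 and Hoxd8. Hoxd1 held 0.305 and 0.0619 CPM at Day 0, 20.7 and 19.6 at Day 2 and 5.7 and 8.11 at Day 4 in shSC. In shCTSL, Hoxd1 held 0.0746 and 0 CPM at Day 0, 24 and 26.7 at Day 2 and 8.39 and 8.6 at Day 4. Hoxd1, the paralog group 1 member of the cluster, was highest at Day 2 in both lines, and shCTSL lay above shSC at Day 2 and Day 4 without overlap. In shSC the log2 changes were 6.82 ± 0.62 (adjusted p 2.77e-07, 6.05 and 8.2 on leaving out shSC Day 0 replicate 2 and 1) at Day 2 and 5.26 ± 0.63 (adjusted p 1.68e-06, 4.48 and 6.64 on leaving out shSC Day 0 replicate 2 and 1) at Day 4. For shCTSL, with 1 to 3 counts over Day 0, the ratio of Hoxd1 to Day 0 was 587 (95% exact counting interval 105 to 23189.8) at Day 2 and 195 (95% exact counting interval 34.7 to 7715) at Day 4. Hoxd4 held 0.229 and 0.0619 CPM at Day 0, 19.4 and 18.1 at Day 2 and 14.9 and 17.7 at Day 4 in shSC. In shCTSL, Hoxd4 held 0 and 0.105 CPM at Day 0, 23.6 and 19.7 at Day 2 and 15.9 and 17 at Day 4. Hoxd4, a gene of the hindbrain and cervical boundary, was lowest in the 4 Day 0 libraries, and the lines overlapped at Day 4. The log2 changes of Hoxd4 in shSC were 7.03 ± 0.63 (adjusted p 1.66e-07, 6.36 and 8.1 on leaving out shSC Day 0 replicate 2 and 1) at Day 2 and 6.82 ± 0.63 (adjusted p 1.21e-07, 6.13 and 7.89 on leaving out shSC Day 0 replicate 2 and 1) at Day 4. For shCTSL its ratio to Day 0 was 487 (95% exact counting interval 87.1 to 19253) at Day 2 and 377 (95% exact counting interval 67.3 to 14894) at Day 4.

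Hoxd8 held 0.457 and 0.495 CPM at Day 0, 8.76 and 8.4 at Day 2 and 8.39 and 10.5 at Day 4 in shSC. In shCTSL, Hoxd8 held 0.522 and 0.105 CPM at Day 0, 12.8 and 10.3 at Day 2 and 12.2 and 13.8 at Day 4. Hoxd8, a gene of the trunk, was lowest in the 4 Day 0 libraries, and shCTSL lay above shSC at Day 2 and Day 4 without overlap. Hoxd8 changed from Day 0 by log2 4.15 ± 0.39 (adjusted p 2.33e-06) at Day 2 and 4.28 ± 0.39 (adjusted p 1.3e-06) at Day 4 in shSC. For Hoxd8 in shCTSL the log2 changes were 5.03 ± 0.49 (adjusted p 1.26e-06, 6.69 without shCTSL Day 0 replicate 1) at Day 2 and 5.2 ± 0.49 (adjusted p 6.39e-07, 4.62 and 6.86 on leaving out shCTSL Day 0 replicate 2 and 1) at Day 4. Hoxd13 held 2.21 and 2.35 CPM at Day 0, 2.79 and 2.49 at Day 2 and 3.84 and 5.34 at Day 4 in shSC. In shCTSL, Hoxd13 held 2.76 and 3.58 CPM at Day 0, 3.32 and 3.32 at Day 2 and 7.79 and 6.88 at Day 4. Hoxd13, the last member of the cluster and a gene of the digits, rose little: shCTSL lay above shSC on all 3 days, and the Day 0 and Day 2 libraries of shCTSL overlapped. Hoxd13 changed from Day 0 by log2 0.21 ± 0.23 (adjusted p 0.438) at Day 2 and 0.99 ± 0.23 (adjusted p 0.00286) at Day 4 in shSC. For Hoxd13 in shCTSL the log2 changes were 0.08 ± 0.23 (adjusted p 0.764) at Day 2 and 1.23 ± 0.22 (adjusted p 0.000577) at Day 4. With library totals alone, Hoxd13 was called higher at Day 2 in shSC (log2 0.61, adjusted p 0.0431). Without shCTSL Day 0 replicate 1 its Day 2 change in shCTSL turned to -0.11.

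Hoxd10 held 0 and 0.0619 CPM at Day 0, 0.365 and 0.0438 at Day 2 and 0.221 and 0.139 at Day 4 in shSC. In shCTSL, Hoxd10 held 0.149 and 0.105 CPM at Day 0, 0.431 and 0.213 at Day 2 and 0.757 and 0.836 at Day 4. Hoxd10, a gene of lumbar motor neurons and the limb, held 1 to 3 counts over each Day 0 group, and shCTSL lay above shSC at Day 0 and Day 4 without overlap. Its ratio to Day 0 in shSC was 6.63 (95% exact counting interval 0.981 to 283) at Day 2 and 5.53 (95% exact counting interval 0.71 to 249) at Day 4. For shCTSL the ratio of Hoxd10 was 2.3 (95% exact counting interval 0.622 to 12.7) at Day 2 and 6.1 (95% exact counting interval 1.9 to 31.2) at Day 4. The shCTSL Day 4 change, log2 2.55 ± 1.03 (adjusted p 0.0197), was no longer called when shCTSL Day 0 replicate 1, shCTSL Day 0 replicate 2 or shCTSL Day 4 replicate 2 was left out, at adjusted p of 0.0933, 0.0858 and 0.0625. The shSC Day 2 change of Hoxd10 was called without shSC Day 2 replicate 2 (log2 3.18, adjusted p 0.0197). Hoxd11 held 0.0762 and 0.31 CPM at Day 0, 0.398 and 0.438 at Day 2 and 0.398 and 0.277 at Day 4 in shSC. In shCTSL, Hoxd11 held 0.373 and 0.737 CPM at Day 0, 0.308 and 0.298 at Day 2 and 1.03 and 1.08 at Day 4. Hoxd11, a gene of the forearm and kidney, was higher in shCTSL than in shSC at Day 0 and Day 4 and lower at Day 2, each without overlap. Hoxd11 changed from Day 0 by log2 1.0 ± 0.60 (adjusted p 0.142, 0.42 and 2.39 on leaving out shSC Day 0 replicate 1 and 2) at Day 2 and 0.75 ± 0.64 (adjusted p 0.311, 0.16 and 2.11 on leaving out shSC Day 0 replicate 1 and 2) at Day 4 in shSC. For Hoxd11 in shCTSL the log2 changes were -0.79 ± 0.54 (adjusted p 0.23) at Day 2 and 0.99 ± 0.45 (adjusted p 0.0646) at Day 4. The shCTSL Day 4 rise of Hoxd11 was called without shSC Day 0 replicate 2 (adjusted p 0.0463), without shCTSL Day 0 replicate 2 (0.0478) and with library totals alone (0.0156), which also called its shSC Day 2 rise (log2 1.39, adjusted p 0.0455). The remaining tested members of cluster d (Hoxd3, Hoxd9) were called higher than Day 0 on both days in each line.

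The last 3 members, Hoxc11, Hoxc12 and Hoxd12, held few counts. Hoxc11 in shSC held 0 counts at Day 0 and 8 and 3 at Day 4, which is at least 2.9-fold higher than the Day 0 floor. Over the 12 libraries Hoxc11 held from 0 to 8 counts, Hoxc12 from 0 to 2 and Hoxd12 from 0 to 6.

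Within each cluster, the level per kilobase was set against paralog number as a description of order. The points of a cluster share the same libraries, and its neighbours share exons in the cases named above. At Day 2 in shSC the Spearman correlation was -0.700 in cluster a (n = 11), -0.261 in cluster b (n = 10), -0.750 in cluster c (n = 9) and -0.783 in cluster d (n = 9). At Day 4 in shSC it was -0.727, 0.115, -0.683 and -0.767 in the same order. In shCTSL the 4 values were -0.655, -0.212, -0.633 and -0.767 at Day 2 and -0.618, 0.127, -0.700 and -0.600 at Day 4. The order was not strict where the correlation was negative: Hoxa5 was first in cluster a at Day 2 and Day 4, and Hoxc8 and Hoxc9 lay above Hoxc4 at Day 4 in both lines. When levels were not divided by length, cluster b gave -0.455 at Day 2 and -0.164 at Day 4 in shSC and -0.479 and 0.0182 in shCTSL, so its sign changed with the scale in shSC at Day 4 alone. At Day 0 in shSC, with most members near the floor, the values were -0.260, 0.758, 0.250 and 0.117.

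Between Day 2 and Day 4 in shSC, 6 of 35 members were called higher (11.4 percent of all genes) and 5 lower (12.4 percent). The 6 were Hoxa3 (log2 0.72), Hoxa4 (0.61), Hoxa6 (1.61), Hoxc6 (1.47), Hoxc13 (0.86) and Hoxd13 (0.78). Among the 5 lower were Hoxb1 (-2.48), Hoxb8 (-0.61), Hoxb9 (-0.59) and Hoxd1 (-1.56). The number called, 11, depended on single libraries. It was 5 without shSC Day 2 replicate 1 (15.7 percent of all genes called), 4 without shSC Day 2 replicate 2 (16.6 percent), 6 without shSC Day 4 replicate 1 (15.1 percent) and 5 without shSC Day 4 replicate 2 (19 percent). Hoxb1, Hoxd1 and Hoxc6 were called in each of these 4 fits. Without shCTSL Day 4 replicate 1 or 2, Hoxb9 was not called (adjusted p 0.0606 and 0.0600) and the number was 10 (22 and 22.2 percent). Without either or both shCTSL Day 2 libraries, Hoxb13 was called as well, which gave 12. The share of all genes was then 27.9 percent without replicate 1 and 28 percent without replicate 2.

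In shCTSL, 6 of 35 were called higher from Day 2 to Day 4 (11 percent of all genes) and 9 lower (12.4 percent). Higher were Hoxa13 (log2 2.38), Hoxb13 (1.31), Hoxc6 (1.38), Hoxc13 (1.0), Hoxd11 (1.78) and Hoxd13 (1.14). Among the 9 lower were Hoxb1 (-2.43), Hoxb2 (-0.67), Hoxb5 (-0.77), Hoxb6 (-1.15), Hoxb8 (-1.20), Hoxb9 (-0.81), Hoxd1 (-1.58) and Hoxd9 (-0.68). The last member of each of the 4 clusters was thus called higher, and Hoxb1 and Hoxd1 lower. Of the members called higher, Hoxa13 and Hoxd11 passed the count filter only with their shCTSL Day 4 libraries. For these members the filter favoured a rise to Day 4 in shCTSL. Without shCTSL Day 2 replicate 2 the number called rose from 15 to 24, while that of all genes rose to 39.2 percent. Without shCTSL Day 2 replicate 1 it was 14 (25.3 percent of all genes), with Hoxb2 lost (-0.49). Without shCTSL Day 4 replicate 1 it was 12 (Hoxb2, Hoxb9 and Hoxd9 lost; 14.7 percent of all genes), and without shCTSL Day 4 replicate 2 it was 10 (Hoxb2, Hoxb9, Hoxc13, Hoxd9 and Hoxd11 lost; 16.6 percent). Without shSC Day 2 replicate 1 or 2 it was 14, with Hoxd9 lost (20.7 and 20.8 percent).

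For Hoxb1 the test of Day 4 against Day 2 gave log2 -2.48 ± 0.24 (adjusted p 7.38e-05) in shSC and -2.43 ± 0.24 (adjusted p 8.74e-05) in shCTSL. For Hoxd1 it gave -1.56 ± 0.22 (adjusted p 0.000543) and -1.58 ± 0.21 (adjusted p 0.000508). In both genes the 2 Day 4 libraries of a line lay below its 2 Day 2 libraries. At the other end of the clusters, Hoxb13 gave 0.66 ± 0.28 (adjusted p 0.11) in shSC and 1.31 ± 0.28 (adjusted p 0.0066) in shCTSL. Hoxc13 gave 0.86 ± 0.22 (adjusted p 0.0131) and 1.0 ± 0.22 (adjusted p 0.00677). Hoxd13 gave 0.78 ± 0.21 (adjusted p 0.0179) and 1.14 ± 0.20 (adjusted p 0.00219). All Day 4 libraries of Hoxb13, Hoxc13 and Hoxd13 lay above the Day 2 libraries of the same line.

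**Figure D2:**
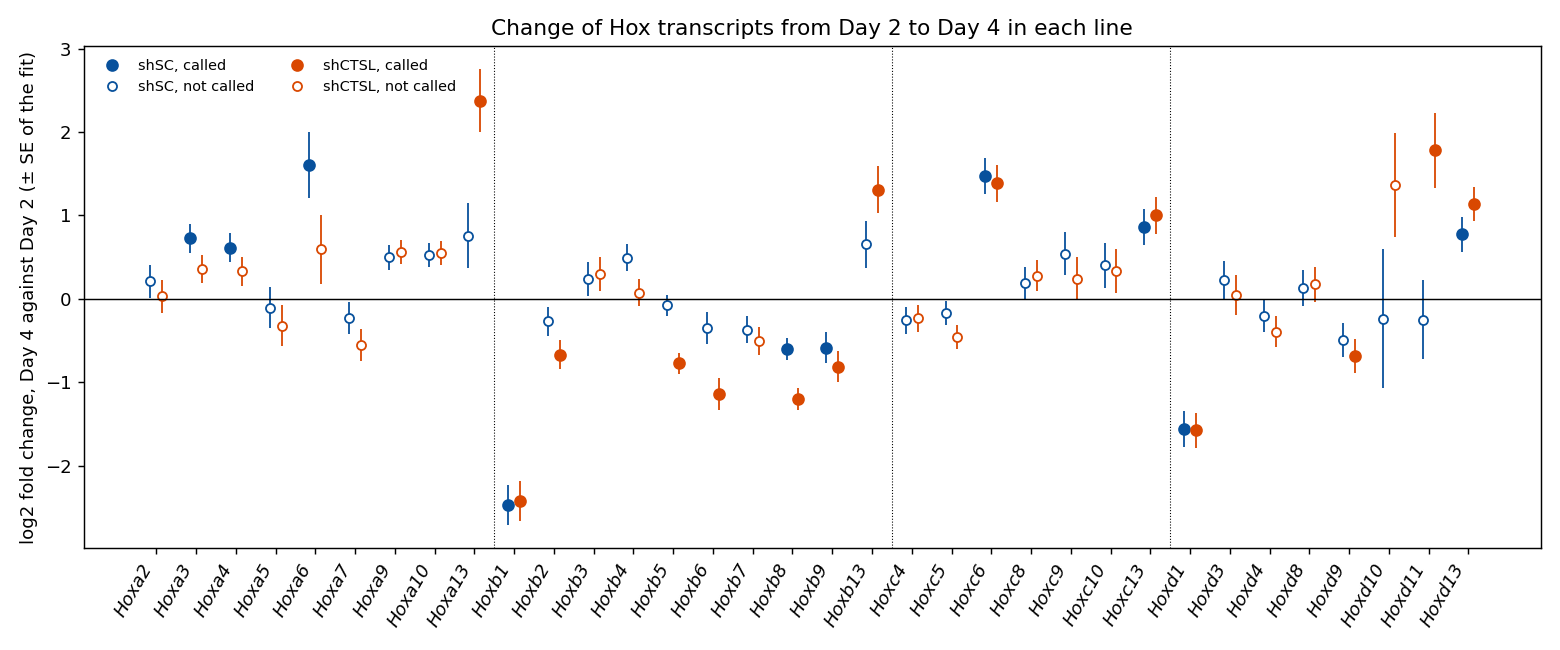
Log2 fold change of tested Hox genes from Day 2 to Day 4 by paralog number, in shSC and shCTSL (points are fitted values from 2 libraries per group, bars ± SE, filled points called). Hoxb1 and Hoxd1 lie below 0 in both lines, and the 4 last members lie above 0. Among these last members, Hoxa13 passed the count filter only with its shCTSL Day 4 libraries.

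At Day 0, 0 of 35 members were called between the lines by edgeR, against 0.0386 percent of all genes. At an unadjusted p under 0.05 there were 2 members (7.26 percent of all genes), and DESeq2 called 0 (0.309 percent). At Day 2 edgeR called 0 members (0.0644 percent), with 6 at an unadjusted p under 0.05 (19.4 percent) and 0 called by DESeq2 (0.805 percent). At Day 4 edgeR called 0 (0.0129 percent), with 9 at an unadjusted p under 0.05 (12.2 percent) and 1 called by DESeq2, Hoxb13 with an adjusted p of 0.0114 (0.85 percent). DESeq2 gave no adjusted p at Day 4 to Hoxa13 (log2 1.52), Hoxd10 (2.12) and Hoxd11 (1.62), so it could not call them. Averaged over the days edgeR called 0 (0.27 percent), with 4 at an unadjusted p under 0.05 (22.6 percent) and 0 called by DESeq2 (0.824 percent). Both at Day 2 and in this average, DESeq2 gave Hoxa6, Hoxa13, Hoxd10 and Hoxd11 no adjusted p and could not call them. The 2 lines did not overlap for 12 members at Day 0, 10 of them higher in shCTSL (51.3 percent of all genes did not overlap, 22.7 percent higher in shCTSL). At Day 2 there were 17 such members, 15 of them higher in shCTSL (45.5 percent of all genes, 22.7 percent higher). At Day 4 there were 25, 14 of them higher in shCTSL (61.5 percent of all genes, 30 percent higher).

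The difference between the lines in the change from Day 0 to Day 2 was called by edgeR for 0 members (0 percent of all genes). It had 2 members at an unadjusted p under 0.05 (11 percent) and 0 called by DESeq2 (0.155 percent). That 0 says little, because DESeq2 gave no adjusted p here to any tested member of clusters c and d. Most tested members of cluster a, and Hoxb7, had none either, so these members could not be called. For the change from Day 0 to Day 4, edgeR called 0 (0.00644 percent), with 4 at an unadjusted p under 0.05 (6.71 percent) and 0 called by DESeq2 (0.18 percent). Hoxd10 and Hoxd11 had no adjusted p from DESeq2 for that change. For the change from Day 2 to Day 4, edgeR called 0 (0 percent), with 5 at an unadjusted p under 0.05 (4.85 percent) and 0 called by DESeq2 (0.0708 percent). With library totals alone, the median of all genes in this last difference moved by 0.101. Genes called in 1 line and not in the other, as above, were therefore not shown to differ between the lines with all 12 libraries.

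Without both shCTSL Day 2 libraries, 15421 genes were tested and the shCTSL against shSC counts changed. At Day 4, 6 of 35 members were called, against 5.89 percent of all genes. They were Hoxa6, Hoxa13, Hoxb13, Hoxd10, Hoxd11 and Hoxd13, the same 6 as without either of those libraries alone (5.82 percent of all genes without replicate 1 and 5.83 percent without replicate 2). Hoxb13 changed by log2 1.06 ± 0.28 (adjusted p 0.236) with all 12 libraries and 1.07 ± 0.12 (adjusted p 9.25e-05) without the 2. Hoxa13 changed by 1.5 ± 0.32 (adjusted p 0.202) and 1.52 ± 0.39 (adjusted p 0.01). Hoxd10 changed by 2.05 ± 0.74 (adjusted p 0.316) and 2.05 ± 0.72 (adjusted p 0.0262). Hoxd11 changed by 1.58 ± 0.44 (adjusted p 0.234) and 1.59 ± 0.48 (adjusted p 0.0178). Hoxd13 changed by 0.69 ± 0.20 (adjusted p 0.26) and 0.71 ± 0.19 (adjusted p 0.0118). Hoxa6 changed by -0.83 ± 0.38 (adjusted p 0.425) and -0.82 ± 0.24 (adjusted p 0.0224). Of the 6, 5 lay at the high-numbered end and were higher in both shCTSL libraries than in both shSC libraries, and Hoxa6 was lower. Of those 5, Hoxa13, Hoxd10 and Hoxd11 passed the count filter only with their shCTSL Day 4 libraries. That is the group in which they were then called higher, so a low member with the opposite sign could not enter the test. The number of calls at that end is therefore no evidence of a pattern. Hoxb5, at -0.51 ± 0.09 (adjusted p 0.0013), and Hoxb8, at -0.56 ± 0.08 (adjusted p 0.000521), named after their values were seen, passed the adjusted p threshold in that fit but not the fold cutoff.

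By paralog number, the fitted Day 4 difference between the lines was above 0 for 6 of 12 tested members of groups 1 to 4, with a median of -0.00. It was above 0 for 3 of 11 members of groups 5 to 8, with a median of -0.12. In groups 9 to 13 it was above 0 for 11 of 12, with a median of 0.33. Of these, Hoxa13, Hoxd10 and Hoxd11 passed the count filter only with their shCTSL Day 4 libraries, so the filter favoured a value above 0. Hoxa11, Hoxc11, Hoxc12 and Hoxd12 did not pass it and are not in this count. The signs in groups 9 to 13 are therefore a description of the members tested and no evidence of a pattern. Over all genes tested the median was -0.00.

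**Figure D3:**
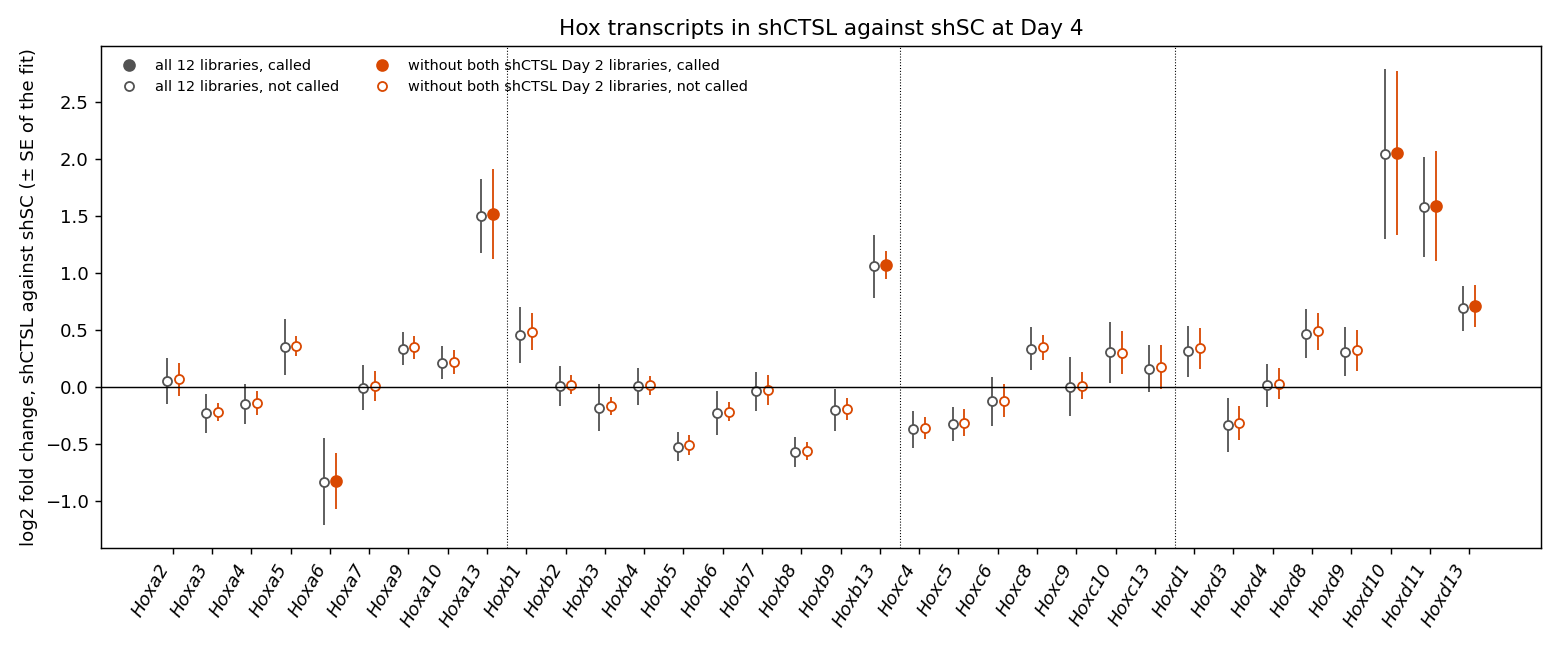
Log2 fold change of shCTSL against shSC at Day 4 by cluster and paralog number, with all 12 libraries and without the 2 shCTSL Day 2 libraries (points are fitted values from 2 libraries per group, bars ± SE, filled points called). The called points appear in the fit without those 2 libraries, 5 of them above 0 at paralog numbers 10 to 13. Of these, Hoxa13, Hoxd10 and Hoxd11 passed the count filter only with their shCTSL Day 4 libraries.

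At Day 0 without both shCTSL Day 2 libraries, 1 of 35 members was called between the lines (1.37 percent of all genes), and it was Hoxb3. With 0 counts in shSC and 7 in shCTSL, it was at least 2.85-fold higher in shCTSL than the shSC floor, a result that rests on 7 counts. The line difference of Hoxb3 in the change from Day 0 to Day 4 was then called as well (log2 -5.65, adjusted p 0.0461), 1 of 35 members against 1.67 percent of all genes. With 0 counts in shSC at Day 0, that fitted value depends on the prior count and is no bound. Without shCTSL Day 2 replicate 1 alone the Day 0 to Day 4 difference was -5.69 (0.0447; 1.63 percent of all genes called) and without replicate 2 alone -5.66 (0.0431; 1.69 percent). The Day 0 to Day 2 difference of Hoxb3 was called without replicate 1 (-5.44, 0.0457; 1.89 percent) and without replicate 2 (-6.14, 0.00195; 26 percent). Averaged over the days Hoxb3 was called without replicate 1 (1.81, 0.0235; 0.761 percent) and without replicate 2 (1.55, 0.0152; 7.68 percent). In each of these fits Hoxb3 was the only member called in the comparison.

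Single shCTSL Day 2 libraries also moved the other comparisons of the lines. Without shCTSL Day 2 replicate 2, 8 of 36 tested members were called at Day 2, against 31.6 percent of all genes: Hoxa5 (log2 0.88), Hoxb1 (0.64), Hoxb2 (0.59), Hoxb3 (-0.66), Hoxb4 (0.66), Hoxb6 (0.84), Hoxb13 (0.73) and Hoxc9 (0.60). Without replicate 1 it was 0 of 36 (0.604 percent), so these calls rest on replicate 1, the library with the high Rn45s share. The line difference in the change from Day 2 to Day 4 was called without replicate 1 for 5 of 36 members (3.57 percent of all genes): Hoxa3 (-0.63), Hoxa6 (-1.49), Hoxb5 (-0.76), Hoxb8 (-0.65) and Hoxb13 (1.07). Without replicate 2 it was called for 4 of 36 (14.7 percent): Hoxb4 (-0.66), Hoxb5 (-0.63), Hoxb6 (-1.06) and Hoxc9 (-0.60). The members in these 3 lists were named after their values were seen. In these fits the lone shCTSL Day 2 library was assumed to vary like the other groups.

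**Figure D4:**
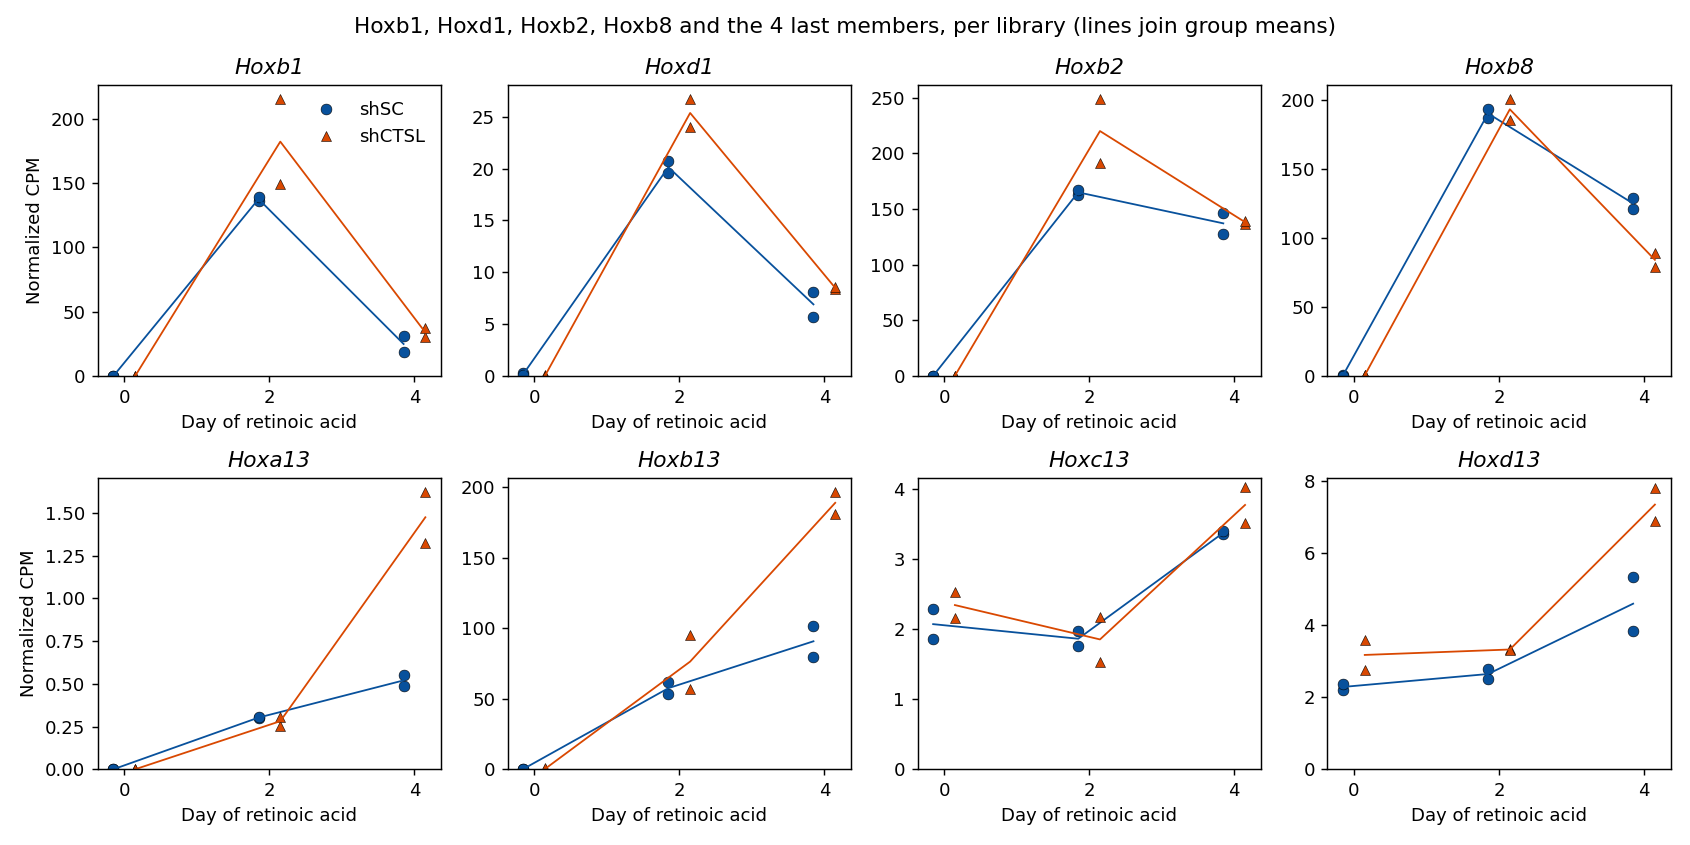
Levels of Hoxb1, Hoxd1, Hoxb2 and Hoxb8 and of the last member of each cluster in every library by day (normalized CPM; each point is 1 library, colour gives the line, lines join group means). Hoxb1, Hoxd1, Hoxb2 and Hoxb8 are highest at Day 2 and the last members are highest at Day 4 in both lines.

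Markers of cell identity moved with the days. Of all genes tested, 29.3 percent were called higher and 25.3 percent lower at Day 2 and 32.1 and 28.7 percent at Day 4 in shSC, and 30.9 and 24.6 percent and then 32.3 and 27.6 percent in shCTSL. All 6 markers of undifferentiated stem cells were tested, and 5 were called lower at Day 2 and at Day 4 in both lines, with Tbx3 not called. Their sum was 4490.4 and 4551 CPM at Day 0, 889 and 851 at Day 2 and 519 and 450.4 at Day 4 in shSC. In shCTSL the sum was 4225 and 4232 CPM at Day 0, 806 and 856 at Day 2 and 441 and 482 at Day 4. The most abundant at Day 0 was Pou5f1, with 1545 and 1567 CPM in shSC and 1495 and 1443 in shCTSL. All 7 markers of primitive and visceral endoderm were called higher at both days in both lines. Their sum was 12.6 and 12.7 CPM at Day 0, 243 and 242 at Day 2 and 501 and 506 at Day 4 in shSC. In shCTSL the endoderm sum was 14.8 and 16.4 CPM at Day 0, 202 and 241 at Day 2 and 582 and 533 at Day 4. At Day 4 the most abundant was Gata6, with 142 and 172 CPM in shSC and 188 and 175 in shCTSL, and Ttr was at 0 in all 4 Day 0 libraries. The part of a changing mixture of cells in the rise of Hox genes was not tested.

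Of 6 neural markers, Pax6 was called higher and Tubb3 lower at Day 2, and at Day 4, 4 were called higher in shSC and 5 in shCTSL, with Tubb3 lower in both. The neural sum was 231 and 245 CPM at Day 0, 134 and 135 at Day 2 and 150.1 and 171 at Day 4 in shSC. In shCTSL the neural sum was 214 and 221 CPM at Day 0, 177 and 147 at Day 2 and 129.9 and 142 at Day 4. Tubb3, a tubulin of neurons, carried its fall, with 163 and 176 CPM at Day 0 and 9.23 and 13 at Day 4 in shSC, and 146 and 149 and then 10 and 10.8 in shCTSL. Of 6 mesoderm and primitive streak markers 5 were tested, and Kdr and Eomes were called higher and Mixl1, named after its values were seen, lower on both days in both lines. Their sum was 10.5 and 7.68 CPM at Day 0, 115 and 117 at Day 2 and 124 and 119 at Day 4 in shSC. In shCTSL the mesoderm sum was 9.54 and 8.42 CPM at Day 0, 43.9 and 76.3 at Day 2 and 113 and 92.4 at Day 4. Kdr made up most of it at Day 4, with 109 and 109 CPM in shSC and 103 and 82.4 in shCTSL. T, which marks the primitive streak and was named after its values were seen, held 1.19 and 0.316 CPM in shCTSL Day 0, 0.353 and 0.139 in shSC Day 4 and 0.108 and 0.344 in shCTSL Day 4. It was called lower at Day 4 in shCTSL, though the Day 0 and Day 4 libraries overlapped.

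Of 6 feeder-like fibroblast markers 5 were tested, and Col1a1, Col1a2, Dcn and Postn were called higher and Thy1 lower on both days in both lines. Their sum was 10.7 and 10.2 CPM at Day 0, 27.4 and 28.4 at Day 2 and 56.8 and 68 at Day 4 in shSC. In shCTSL the fibroblast sum was 8.13 and 6.53 CPM at Day 0, 21.4 and 25 at Day 2 and 62.3 and 64.7 at Day 4. Of 5 trophoblast markers 3 were tested. Their sum was 82.5 and 84.1 CPM at Day 0, 109.7 and 94.4 at Day 2 and 170.5 and 151 at Day 4 in shSC. In shCTSL the trophoblast sum was 73.4 and 67.5 CPM at Day 0, 184 and 126 at Day 2 and 248 and 285 at Day 4. Krt8 made up most of it at Day 2 and Day 4, and Tfap2c was the most abundant in 3 of the 4 Day 0 libraries. Against Day 0, Krt8 was called higher and Tfap2c lower on both days in both lines, and Gcm1 higher at Day 4 in shSC. At Day 4 Tfap2c held 26.2 and 20.4 CPM in shSC and 15.3 and 15.7 in shCTSL, and Gcm1 held 3.93 and 2.5 and 1.24 and 1.38, so both were lower in shCTSL while Krt8 was higher. Between the lines 0 members of the 6 marker lists were called by edgeR on any day with all 12 libraries (0.0386, 0.0644 and 0.0129 percent of all genes at Day 0, 2 and 4). Averaged over the days Krt8 was called higher in shCTSL (log2 0.72, adjusted p 0.048; 0.27 percent of all genes). Without both shCTSL Day 2 libraries, all 3 tested trophoblast markers were called between the lines at Day 4 (5.89 percent of all genes): Krt8 higher in shCTSL (0.91, 3.8e-05), and Tfap2c (-0.59, 0.00282) and Gcm1 (-1.32, 0.00348) lower. In that fit Sox17 of the endoderm list (-0.62, 0.0167), named after its values were seen, was called lower as well. Of the 6 neural markers, 1 was also called lower there. Tfap2c was also called lower at Day 0 (-0.67, 0.0029; 1.37 percent of all genes), and the change of Sox1 from Day 0 to Day 4, named after its values were seen, differed between the lines (-0.90, 0.014; 1.67 percent). Krt8, a keratin of simple epithelia, held 139 and 128 CPM in shSC Day 4 and 231 and 268 in shCTSL Day 4, while Prl3d1, a marker of trophoblast giant cells named after its values were seen, held 0.0442 and 0 and 0.0541 and 0.148. Whether other cell types or RNA quality had a part in the Day 4 differences of Hox genes between the lines was not tested.

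The TALE homeodomain proteins Pbx, Meis and Pknox bind DNA together with Hox proteins, and all 9 of their genes were tested. In shSC 7 were called higher at Day 2 (29.3 percent of all genes) and 7 at Day 4 (32.1 percent), with medians of 2.29 and 3.06. In shCTSL 8 were called higher at Day 2 (30.9 percent) and 7 at Day 4 (32.3 percent), with medians of 2.48 and 2.54, and Pknox1 was called lower at Day 4 (27.6 percent). Pbx2 held 66.5 and 67.4 CPM at Day 0, 208 and 202 at Day 2 and 220.2 and 226 at Day 4 in shSC. In shCTSL, Pbx2 held 74.8 and 64.3 CPM at Day 0, 222 and 223 at Day 2 and 212 and 224 at Day 4. Its Day 2 and Day 4 libraries lay above all 4 Day 0 libraries. Meis2 held 2.44 and 3.22 CPM at Day 0, 251 and 262 at Day 2 and 332 and 341 at Day 4 in shSC. In shCTSL, Meis2 held 4.4 and 4.95 CPM at Day 0, 163 and 221 at Day 2 and 259 and 267 at Day 4. Meis2 was likewise lowest in the 4 Day 0 libraries, and lower in shCTSL than in shSC without overlap at Day 2 and Day 4.

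Of 19 genes of retinoic acid reception, metabolism and response, 13 were called higher and 2 lower at Day 2 in shSC (29.3 and 25.3 percent of all genes), and 13 and 2 at Day 4 (32.1 and 28.7 percent), with medians of 2.84 and 4.24. In shCTSL 13 were called higher and 3 lower at Day 2 (30.9 and 24.6 percent), and 15 and 3 at Day 4 (32.3 and 27.6 percent), with medians of 2.11 and 3.96. Cyp26a1, which encodes an enzyme that clears retinoic acid, held 1.6 and 0.867 CPM at Day 0, 1323 and 1281 at Day 2 and 583 and 626 at Day 4 in shSC. In shCTSL, Cyp26a1 held 1.49 and 1.79 CPM at Day 0, 1841 and 1476 at Day 2 and 685 and 673 at Day 4. Like Hoxb1 and Hoxd1 it was highest at Day 2 in both lines. Stra8, a retinoic acid target, held 1.37 and 1.18 CPM at Day 0, 566 and 601 at Day 2 and 361 and 444 at Day 4 in shSC. In shCTSL, Stra8 held 1.64 and 1.16 CPM at Day 0, 914 and 566 at Day 2 and 394 and 469.9 at Day 4. Its 2 shCTSL Day 2 libraries differed by more than its shSC pair. Cyp26b1, a related clearing enzyme, held 0.457 and 0.31 CPM at Day 0, 479 and 459 at Day 2 and 623 and 604 at Day 4 in shSC. In shCTSL, Cyp26b1 held 0.522 and 1.68 CPM at Day 0, 269 and 456 at Day 2 and 521 and 478 at Day 4. It was highest at Day 4 in both lines.

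Of 20 further regulators of Hox genes, among them Polycomb, Cdx and hindbrain genes, 17 were tested. In shSC 8 were called higher and 5 lower at Day 2 (29.3 and 25.3 percent of all genes), and 6 and 6 at Day 4 (32.1 and 28.7 percent), with medians of 0.47 and 0.38. In shCTSL 9 were called higher and 6 lower at Day 2 (30.9 and 24.6 percent), and 6 and 7 at Day 4 (32.3 and 27.6 percent), with medians of 0.62 and 0.11. The Polycomb genes Ezh2, Eed and Suz12 were called lower on both days in both lines, while Ring1 was called higher and Rnf2 lower at Day 2 in shCTSL alone, these 2 named after their values were seen. Eed held 469 and 500.1 CPM at Day 0, 118 and 125 at Day 2 and 117 and 112 at Day 4 in shSC. In shCTSL, Eed held 507 and 504 CPM at Day 0, 158 and 107 at Day 2 and 121 and 125 at Day 4. Suz12 held 419 and 419.7 CPM at Day 0, 248 and 267 at Day 2 and 239 and 219.9 at Day 4 in shSC. In shCTSL, Suz12 held 396 and 439 CPM at Day 0, 136 and 194 at Day 2 and 196 and 167 at Day 4. Both were highest in the 4 Day 0 libraries. Ctcf, an insulator protein gene, was called lower on both days in both lines as well. Between the lines 0 of these 17 genes, and 0 of the 9 and 19 above, were called by edgeR on any day with all 12 libraries, where the shares of all genes were 0.0386, 0.0644 and 0.0129 percent. Without both shCTSL Day 2 libraries it was again 0 of the 17, while Stra6 (log2 -0.87, adjusted p 5.89e-05) and Aldh1a2 (-0.88, 9.25e-05) of the 19 retinoic acid genes, named after their values were seen, were called lower in shCTSL at Day 4 (5.89 percent of all genes). Of the 9 cofactor genes Meis2 was then called higher at Day 0 (0.70, 0.0363; 1.37 percent), and its change from Day 0 to Day 4 was lower in shCTSL (-1.05, 0.0131; 1.67 percent).

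Of 27 genes embedded in the clusters or next to them, 23 were in the table and 14 were tested. Hoxa11as, Hoxb3os, Prac and Lnp were not in the table under those names. In shSC 9 were called higher and 2 lower at Day 2 (29.3 and 25.3 percent of all genes), and 8 and 2 at Day 4 (32.1 and 28.7 percent). In shCTSL 8 and 2 were called at Day 2 (30.9 and 24.6 percent), and 7 and 2 at Day 4 (32.3 and 27.6 percent). The medians were 1.08 and 0.87 in shSC and 1.08 and 0.57 in shCTSL. The most abundant, Cbx5, a heterochromatin protein gene next to cluster c, held 844 and 812 CPM at Day 0, 478 and 491 at Day 2 and 539 and 501 at Day 4 in shSC. In shCTSL, Cbx5 held 798 and 858 CPM at Day 0, 309 and 436 at Day 2 and 499.8 and 412 at Day 4. It was called lower on both days in both lines, while the Hox genes beside it rose. Calcoco1 held 66 and 70.2 CPM at Day 0, 148 and 135 at Day 2 and 188 and 174 at Day 4 in shSC. In shCTSL, Calcoco1 held 63.6 and 63.6 CPM at Day 0, 100.4 and 183 at Day 2 and 158 and 163 at Day 4. Flanking genes thus did not all move with their cluster. Between the lines 0 of the 14 were called by edgeR on any day with all 12 libraries (0.0386, 0.0644 and 0.0129 percent of all genes). Without both shCTSL Day 2 libraries 1 of the 14, the noncoding Hotairm1, named after its values were seen, was called higher in shCTSL at Day 4 (log2 0.71, adjusted p 0.000993; 5.89 percent of all genes).

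Among the microRNA genes of the clusters are 5 of 2 families, with 4 mature sequences. Mir615, of another family, held 0 to 4 counts per library and its sequence is not given here. For the 5, the mature 5p sequences from RefSeq are given with bases 2 to 8, the seed, in capitals (GRCm38.p6). Mir10a lies at chr11:96317186-96317208 on the plus strand, Mir10b at chr2:74726074-74726096 on the plus strand, and Mir196b at chr6:52230129-52230150 on the minus strand. Mir196a-1 at chr11:96265187-96265208 and Mir196a-2 at chr15:102973365-102973386, both on the plus strand, give the same mature sequence.

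miR-10a-5p: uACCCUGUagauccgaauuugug

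miR-10b-5p: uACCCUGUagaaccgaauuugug

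miR-196a-5p: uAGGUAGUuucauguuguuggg

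miR-196b-5p: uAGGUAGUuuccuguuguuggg

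The seed ACCCUGU is shared by the first 2 and AGGUAGU by the last 2. The count table measures their precursor genes poorly: Mir196a-2 held 0 counts in all 12 libraries, and Mir196a-1 held 0.457 and 0.495 CPM at Day 0, 1.73 and 1.36 at Day 2 and 1.68 and 1.73 at Day 4 in shSC. In shCTSL, Mir196a-1 held 0.969 and 0.842 CPM at Day 0, 1.29 and 2.6 at Day 2 and 2.43 and 1.52 at Day 4. Mature microRNAs were not measured.

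Promoter sequences, the 250 bases before the annotated start of 32851 RefSeq entries, were at hand for 24 entries over 22 Hox genes, and 17 members had none. Retinoic acid receptor motifs were searched as direct repeats, on both strands, of the half-site AGGTCA with A or G allowed at base 1 and G or T at base 3. Repeats 2 bases apart were found in 57 of all entries (0.174 percent) and repeats 5 bases apart in 29 (0.0883 percent), against 0 of the 24 Hox entries for each. The Hox and Pbx motif TGATNNAT, on either strand, was found in 2524 of all entries (7.68 percent) and in 4 of 24 Hox entries (16.7 percent): Hoxa2, Hoxb1, Hoxb8 and Hoxd11. A match is a description of sequence and not a measured binding site, and none of the matches named here overlap another. The sequences before 3 genes that fell from Day 2 to Day 4 in both lines follow, read along the plus strand, with matches to TGATNNAT in capitals. They are Hoxb1 at chr11:96365508-96365757 with 1 match, Hoxd1 at chr2:74762730-74762979 with 0, and Hoxb8 at chr11:96281655-96281904 with 1 on the opposite strand (GRCm38.p6).

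Hoxb1: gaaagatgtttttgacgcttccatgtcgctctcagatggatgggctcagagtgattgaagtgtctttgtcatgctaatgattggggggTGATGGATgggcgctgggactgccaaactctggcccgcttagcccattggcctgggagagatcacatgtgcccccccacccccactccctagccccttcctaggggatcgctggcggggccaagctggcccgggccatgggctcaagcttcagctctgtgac

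Hoxd1: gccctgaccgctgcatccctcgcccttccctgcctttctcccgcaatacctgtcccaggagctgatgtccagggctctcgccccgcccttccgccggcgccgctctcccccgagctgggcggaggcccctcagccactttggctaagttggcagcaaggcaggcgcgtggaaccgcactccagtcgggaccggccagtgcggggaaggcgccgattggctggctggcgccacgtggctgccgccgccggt

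Hoxb8: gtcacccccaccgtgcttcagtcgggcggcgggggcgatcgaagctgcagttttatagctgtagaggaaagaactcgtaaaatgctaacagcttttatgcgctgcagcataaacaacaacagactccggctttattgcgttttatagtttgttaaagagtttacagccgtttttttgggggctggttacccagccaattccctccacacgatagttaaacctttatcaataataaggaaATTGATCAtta

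The limits are these. Day 0 counts of most members are near the floor, so the size of a rise is known only within the counting intervals given. Each group has 2 libraries, and those of shCTSL Day 2 differ from each other more than any other pair. Bulk RNA does not say which cells hold a transcript, and no protein or chromatin measurement was used here.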

How the data were processed

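RNA of 12 libraries (2 lines, Day 0, 2 and 4, 2 per group) was read from 1 table of 24495 genes holding counts per gene, as deposited by the authors. The authors aligned reads to mm9 with STAR 2.3.0e after FastQC 0.11.2, removed reads of mapping quality under 10 with SAMtools 0.1.19, counted RefSeq genes with featureCounts 1.6.2, and used DESeq2 1.16.1 and bedtools 2.27.1. All 12 columns were used, and depth was 11171111 to 27155553 counts.

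Here edgeR 4.0.16 in R 4.3.3 was used with TMM factors, filterByExpr with a minimum count of 10 (15532 genes tested), a mean for each of 6 groups (6 residual degrees of freedom), and the quasi-likelihood test with Benjamini-Hochberg adjustment over all genes tested. A call needs an adjusted p under 0.05 and a fold change of at least 1.5. The 13 comparisons were days within a line, lines within a day and averaged, and line differences between days. The pipeline was run on simulated data in which genes were raised in shSC Day 4 alone. That simulation did not copy the spread of the shCTSL Day 2 pair or the low Day 0 counts of Hox genes, so it does not cover them. Values after ± are SE of the fit. Levels per kilobase use exonic lengths of GENCODE gene models on mm9, matched by symbol. The authors counted RefSeq genes, so the lengths come from another annotation than the counts. A group at 0 counts is given a floor of 3 counts over the group. Tables and figures used Python 3.11.15, pandas 2.3.3 and matplotlib 3.10.9. Promoter and microRNA sequences are from RefSeq, GRCm38.p6. No protein sequences were at hand.

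Alternatives tried were RLE normalization, DESeq2 1.42.0, no filter, at least 1 CPM in 2 libraries, only the libraries compared, leaving out the shCTSL Day 2 libraries, no fold cutoff, a log2 cutoff of 1.5, a replicate block, each library left out in turn, levels without length, and library totals alone. Members with values in every library were the 3 highest per kilobase at Day 4 in each cluster, paralog group 1, the last member of each cluster, and any called between the lines or in a line difference, with all libraries or without shCTSL Day 2. Of each gene list up to 4 of the most abundant members are named. Results of 3 genes are not reported here. Members and lists were chosen with earlier results of these data known.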

Additional observations from a re-analysis of the deposited data

Results flagged for a closer look

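The change of Hoxb3 from Day 0 to Day 4 differed between the lines by log2 -5.65 without both shCTSL Day 2 libraries, by a test of the difference itself (edgeR quasi-likelihood test, adjusted p 0.0461). The gene held 0 counts in both shSC Day 0 libraries and 7 over the shCTSL Day 0 libraries, so the size of this difference rests on 7 counts and on the prior count.

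From Day 0 to Day 2 the counts of Hoxa11 went from 1 and 4 to 8 and 6 in shSC and from 6 and 3 to 4 and 6 in shCTSL. The ratios were 1.55 (95% exact counting interval 0.526 to 5.49) in shSC and 0.640 (0.234 to 1.78) in shCTSL. Both intervals hold 1, so neither line was shown to move. The mean in shCTSL changed by -0.131 CPM, and the difference between the lines was not tested. Hoxd12 went from 1 and 2 counts to 2 and 0 in shSC, where both groups are at or below the floor of 3 counts, and from 1 and 0 to 2 and 6 in shCTSL, a ratio of 4.61 (0.618 to 205). Its mean in shCTSL changed by 0.152 CPM, and this difference was not tested either.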

How the results depend on the processing

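Counts of Hox genes called against Day 0 were near all members tested and those between the lines at 0, so most could hardly move. From Day 2 to Day 4, the 11 members called in shSC became 3 with a log2 cutoff of 1.5 (9.41 percent of all genes). The 15 in shCTSL became 4 with that cutoff (8.45 percent) and 7 with only the libraries compared (8.01 percent). Fewer genes pass a higher cutoff by construction. For the lines at Day 4, 0 became 1 with DESeq2 (0.85 percent of all genes), 1 without a filter (0.524 percent), 6 with only the libraries compared (4.83 percent) and 6 without both shCTSL Day 2 libraries (5.89 percent). DESeq2 gave Hoxa13, Hoxd10 and Hoxd11 no adjusted p at Day 4. Without those libraries, 0 became 1 at Day 0 and in the line difference from Day 0 to Day 4. The cause was not tested.

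Leaving out 1 library at a time gave 4 to 12 for shSC and 10 to 24 for shCTSL from Day 2 to Day 4. For the lines it gave 0 to 1 at Day 0, 0 to 8 at Day 2, 0 to 6 at Day 4 and 0 to 1 averaged. The line differences gave 0 to 1 for Day 2 against Day 0, 0 to 1 for Day 4 against Day 0 and 0 to 5 for Day 4 against Day 2. The cause was not tested.

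Of single genes, direction reversed for Hoxc13 at Day 2 against Day 0 in shSC (0.24) and shCTSL (0.040) with library totals alone, an alternative chosen after the data were seen that moves the median of all genes by 0.395 and 0.339, so these follow the scaling. With 1 library left out, Hoxd13 at Day 2 in shCTSL ran from -0.11 (without shCTSL Day 0 replicate 1) to 0.27; the cause was not tested. Hoxb13 averaged over the days ran from -1.10 (without shCTSL Day 0 replicate 2) to 1.01, but the low value is fitted against 0 counts at Day 0 and shows no reversal. Apart from leaving out libraries, 1018 single values kept direction and side of the threshold, 37 lost a call, 27 gained one, 2 reversed and 14 levels moved. With 1 library left out, 1273 kept them, 57 lost a call, 24 gained one and 2 reversed.

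With replicate number as a block, 10 members were called in shSC from Day 2 to Day 4, and the other counts were those without it. Replicate numbers were not shown to pair libraries: correlations over 15 pairs of groups ran from -0.465 to 0.257, with 2 over 0.1. Ctsl at Day 2 had an adjusted p of 0.0631 with the block. Depth limits Day 0, where 5 members per library reached 10 counts.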
